A study of Homo sapiens with 15 samples.

Results

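Androgens control a set of genes in prostate cells, and some of these are commonly read as the output of androgen signalling. The 42 genes described here come from a list of androgen-regulated prostate genes, which also holds transcription factors such as FOXA1 and HOXB13. The list gives no direction of regulation, so higher and lower levels are not read here as more or less androgen signalling. The genes were chosen by symbol, by a rule that uses no measured value, although earlier results of these data were known when the list was drawn up. Of the 42 genes 41 had an entry among the 20806 of the deposited tables, and UGT2B17 was not analysed here. Of those 41 genes 40 passed the filter on low counts and were tested among 14246 genes, and OPRK1, the kappa opioid receptor, did not pass it.

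RNA was measured by poly(A) sequencing in C4-2, a castration-resistant human prostate cancer line that descends from LNCaP, with 3 libraries for each of 5 sublines. These were a knockout of PNPLA2 (KO), the knockout with wild-type protein added back (KO_WT), with the S47A protein (KO_S47A) or with the S404A protein (KO_S404A), and a scramble control (Scramble). PNPLA2 encodes adipose triglyceride lipase (ATGL), the enzyme that starts the breakdown of stored triglyceride, and S47A lacks the catalytic serine. All lines were grown in 5 mM glucose with 5% dialyzed serum, the 4 lines other than Scramble share the knockout, and the labels name no androgen or antiandrogen treatment. A genotype is represented by 1 line, for which the sources used here give neither cloning or pooling nor the promoter of an added protein. Separate cultures are not stated for the libraries of a line, so p-values measure no more than the spread among these libraries, and that spread may be technical.

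In prostate epithelium androgen signalling acts on genes through paired half-sites in DNA, the androgen response elements, often where the pioneer factor FOXA1 has opened the chromatin. Among the best-known targets are the kallikrein proteases KLK3, which is prostate-specific antigen, and KLK2, the protease TMPRSS2 and FKBP5, a co-chaperone of HSP90 in steroid hormone signalling. Castration-resistant cells keep much of this output with little hormone, and these genes are followed as a measure of androgen signalling.

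Counts in genes totalled 40846694 to 64345775 per library. PNPLA2, the targeted gene, averaged 11.3 ± 1.99 CPM (counts scaled to library size by TMM) in KO and 48.9 ± 4.76 CPM in Scramble (SD, n = 3 each), and fell by 2.11 on the log2 scale (SE 0.20, adjusted p = 3.54e-05). It averaged 219.9 ± 18.1 CPM in KO_WT, 129 ± 30.6 CPM in KO_S47A and 413 ± 98.3 CPM in KO_S404A, all above Scramble. The luminal epithelial genes KRT8, KRT18, EPCAM, CDH1 and CLDN4 stood at 132 to 499.8 CPM in every library, and the luminal gene KRT19 stayed at or below 0.331 CPM. Of 6 basal genes, KRT5 and TP63 were at 0 in all 15 libraries, LAMB3 and S100A2 stayed at or below 0.968 CPM, KRT14 was at 1.38 to 4.63 CPM and ITGB4 at 9.73 to 17.995 CPM. Between KO and Scramble ITGB4 had a log2 difference of 0.54 (adjusted p = 0.00683) and KRT14 one of −1.04 (adjusted p = 0.00315). In these bulk libraries, fewer cells of a type and less RNA per cell cannot be told apart. The libraries of a line differed by more than counting noise. Library 2 of KO_S404A had the lowest KLK2 and KLK3 of all 15, and the members' values in library 3 of each line are described further on.

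The promoters of KLK2 and KLK3 are shown because these kallikreins are the best-known members and carry closely matching stretches, and because the members' promoters were searched for the androgen response element. RefSeq promoter windows (GRCh38.p14), from 250 bases before to 50 bases after a gene's start, matched 32 of the 41 members in 52 windows. The consensus element, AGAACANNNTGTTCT, is its own reverse complement, has 12 fixed letters and was searched on both strands at once. In the 250 bases before the start of each gene, 5′ to 3′ on the plus strand, capitals mark the best 15-base match.
KLK2 (chr19:50873189-50873438): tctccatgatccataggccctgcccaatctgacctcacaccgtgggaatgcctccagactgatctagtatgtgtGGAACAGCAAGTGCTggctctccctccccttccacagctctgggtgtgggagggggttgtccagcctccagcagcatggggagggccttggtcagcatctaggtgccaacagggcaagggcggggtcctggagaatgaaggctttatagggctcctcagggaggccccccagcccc
KLK3 (chr19:50854665-50854914): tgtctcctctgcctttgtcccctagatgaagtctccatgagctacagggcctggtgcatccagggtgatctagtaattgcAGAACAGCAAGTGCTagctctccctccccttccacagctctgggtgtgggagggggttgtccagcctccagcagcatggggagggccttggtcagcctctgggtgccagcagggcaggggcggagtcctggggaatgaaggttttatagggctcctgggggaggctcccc
The KLK3 match starts 170 bases before the start, and against the consensus it carries T10A and T13G, with positions counted from 1 at the element's 5′ end. The KLK2 match starts 176 bases before the start and carries A1G, T10A and T13G. From the KLK2 element to the KLK3 element the one substitution is G1A, and the 2 stretches are identical at 205 of 259 alignment columns (79.2%). Of other members described in detail, the best match had 4 mismatches in BMPR1B, GNMT and UGT2B15. It had 5 in KLK4, HERC3, LRIG1 and TMEFF2, and 6 in MAF and ABCC4. The matches of TRPM8, PTGER4 and FKBP5 follow because their best match had 3 mismatches. TRPM8 and FKBP5 had more than 1 window, and their other windows had 4 or 5 mismatches. Each match is written 5′ to 3′ on the gene's strand, with the letters that fit a fixed consensus letter in capitals.
TRPM8 (chr2:233917179-233917193): AaAAtAccaTGTTCa
PTGER4 (chr5:40679903-40679917): AGAAaAgttTGTaCa
FKBP5 (chr6:35728788-35728802, minus strand): AGAAaAgcagGgTCT
With at most 2 mismatches the element was found in 2 of 52 member windows (3.85%), against 1.41% of all 35116 windows, and with at most 3 in 8 of 52 (15.4%), against 10.8%. These are matches of letters and not measured binding.

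By length-normalised level, which allows genes to be compared, KLK3 was the most abundant member in all 5 lines. In the authors' deposited FPKM it stood at 884 ± 141 in KO and 1264 ± 25.4 in Scramble (SD, n = 3 each). FOLH1, which encodes prostate-specific membrane antigen, came second in all 5 lines, with 322 ± 10.1 FPKM in KO and 302 ± 26.3 FPKM in Scramble. KLK2 stood at rank 6 in KO with 105 ± 11.5 FPKM and at rank 3 in Scramble with 184 ± 6.03 FPKM, and the genes between FOLH1 and KLK2 in KO were UAP1, HOXB13 and STEAP1. At the other end, HPGD, STEAP4 and OPRK1 averaged 0.105, 0.0379 and 0.00937 FPKM in Scramble.

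**Figure D1:**
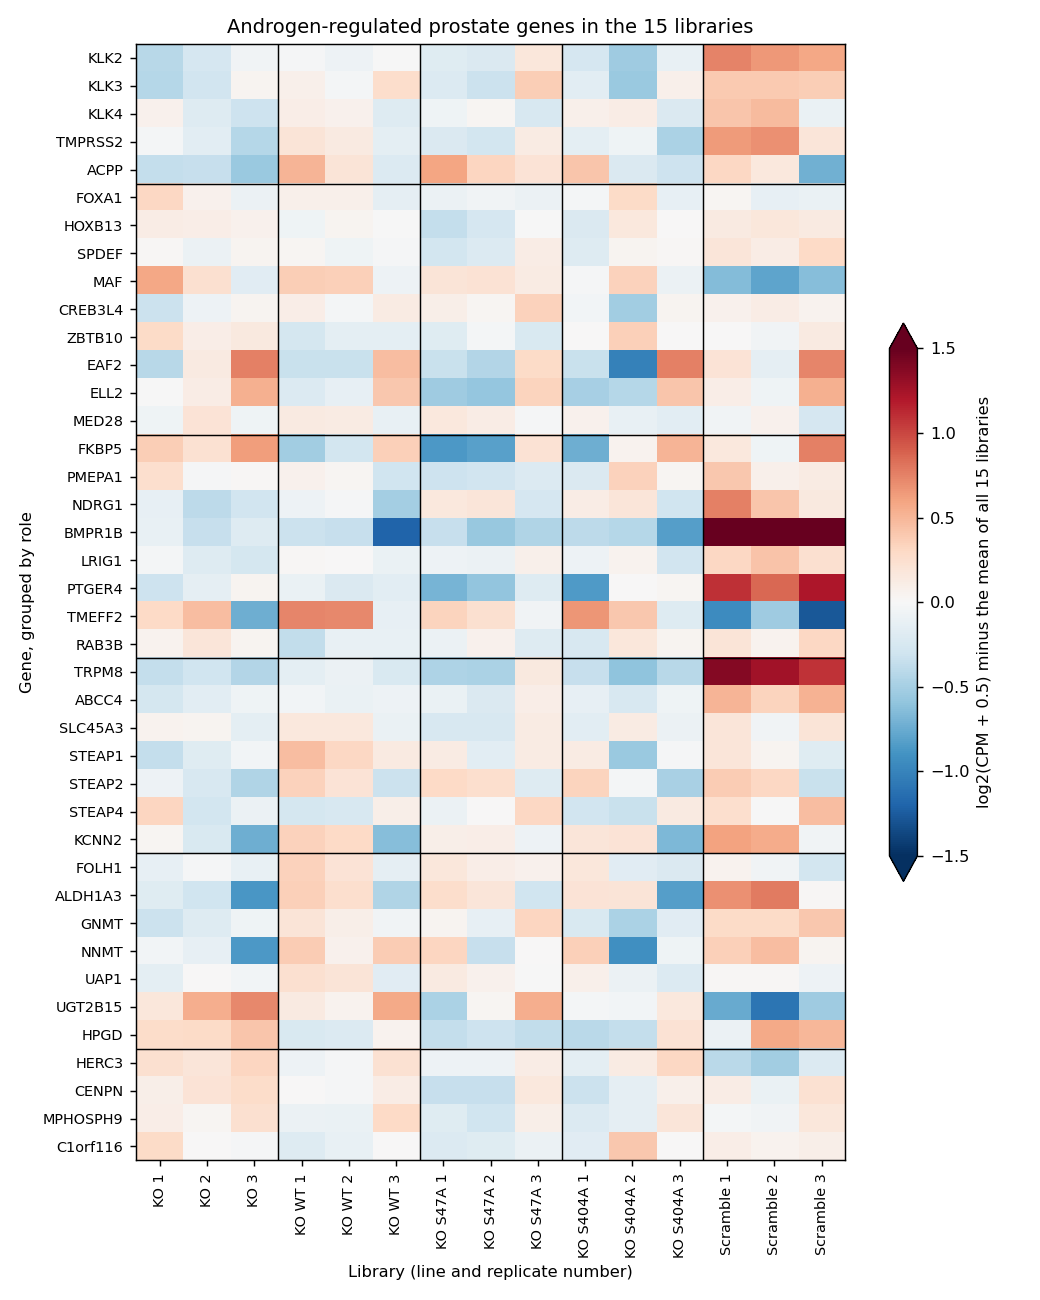
Heat map of 40 tested members (rows) in 15 libraries (columns, grouped by line): colour is log2(CPM + 0.5) minus the mean of all 15 libraries, limited to 1.5 either way. Members such as BMPR1B, TRPM8 and PTGER4 are lower in all 12 knockout-derived libraries than in Scramble, and MAF, HERC3 and UGT2B15 are higher.

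Of the 40 tested members, 11 were called between KO and Scramble at an adjusted p under 0.05, with 3 higher and 8 lower in KO. Over all 14246 genes 2.69% were called, 0.969% higher and 1.72% lower. The members' median log2 difference was −0.16, and that of all genes 0.02. The ranges of the 3 libraries did not overlap for 15 members that were lower in KO and 3 that were higher, against a background of 10.6% lower and 10.1% higher over all genes. Adjusted p-values here and below come from edgeR's quasi-likelihood test, adjusted over all genes. Same-numbered libraries of the 2 lines correlated in their deviations from the line means, at 0.1265, 0.1704 and 0.4039 for libraries 1, 2 and 3. Libraries 1 and 2 correlated about as much across numbers (0.1178 and 0.165), so only library 3 stood apart. With the library number as a block 18 members were called, 4 higher and 14 lower, where 8.29% of all genes were. Without 1 library 4 to 12 members were called, namely 4 when Scramble 2 was left out, 6 when Scramble 1 or KO 3 was, and 7 when KO 1 or KO 2 was. Over all genes 383 were called with every library. The count was 206, 205 and 291 without Scramble 1, 2 or 3, and 215, 209 and 213 without KO 1, 2 or 3.

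In the group of secreted and surface proteases with the phosphatase ACPP, 2 of 5 members fell in KO and none rose. KLK2 had 415, 463 and 532 CPM in KO, 545, 525 and 551 CPM in KO_WT, 486, 475 and 622 CPM in KO_S47A, 466, 381 and 514 CPM in KO_S404A and 926, 866 and 825 CPM in Scramble. KLK2, a trypsin-like protease able to activate the KLK3 precursor, was lower in all 12 knockout-derived libraries than in the lowest Scramble library. In KO it fell by 0.89 on the log2 scale (SE 0.13, adjusted p = 0.00193). TMPRSS2 had 297, 273 and 227 CPM in KO, 347, 333 and 275 CPM in KO_WT, 261, 251 and 332 CPM in KO_S47A, 275, 289.8 and 218 CPM in KO_S404A and 474, 489 and 344 CPM in Scramble. TMPRSS2, a membrane serine protease whose androgen-driven promoter is often fused to ERG in prostate cancer, was below Scramble in every KO library, but 1 KO_WT library overlapped Scramble. It fell by 0.71 in KO (SE 0.17, adjusted p = 0.0359), a call lost without any 1 of 5 libraries (Scramble 1, Scramble 2, KO 1, KO 2 or KO 3), with adjusted p from 0.0613 to 0.164.

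KLK3, the most abundant of the list, did not pass the test. KLK3 had 1991, 2209.7 and 2773 CPM in KO, 2837, 2638 and 3232 CPM in KO_WT, 2336, 2148 and 3464 CPM in KO_S47A, 2414, 1829.5 and 2831 CPM in KO_S404A and 3535, 3529.7 and 3483 CPM in Scramble. Every knockout-derived library was below the lowest of Scramble, and the SD within a knockout-derived line was 302 to 712 CPM, against 28.9 CPM in Scramble. The log2 difference between KO and Scramble was −0.60 (SE 0.19, interval −1.003 to −0.19, adjusted p = 0.142), and with the block it was called (−0.62, adjusted p = 0.00504). KLK4 had 114, 95.04 and 88.0 CPM in KO, 117, 114 and 95.2 CPM in KO_WT, 105, 111 and 91.9 CPM in KO_S47A, 115, 117 and 93.5 CPM in KO_S404A and 145, 152 and 102 CPM in Scramble. For KLK4, a kallikrein made mainly in prostate and in developing teeth, the KO and Scramble ranges overlapped. Its log2 difference was −0.43 (SE 0.16, adjusted p = 0.23), and −0.41 with the block (adjusted p = 0.00762). ACPP, prostatic acid phosphatase, averaged 10.6 ± 0.873 CPM in KO and 14.1 ± 4.96 CPM in Scramble (adjusted p = 0.613).

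**Figure D2:**
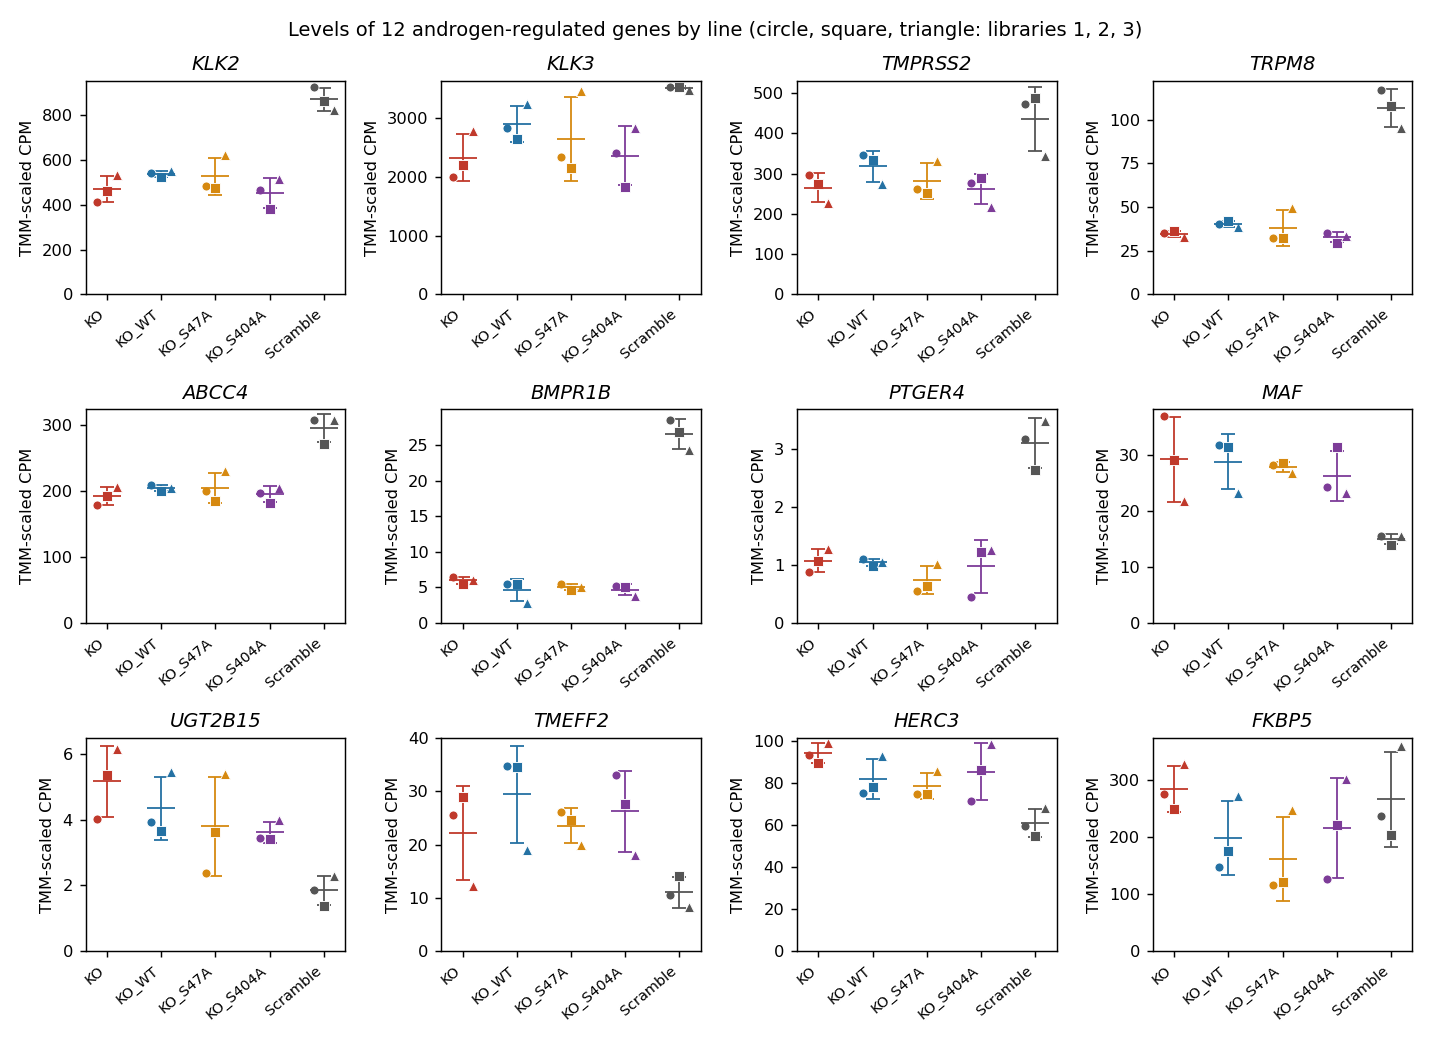
Levels of 12 members in CPM (vertical axes, linear from 0) by line (horizontal axes); each point is 1 library, and bars show the mean ± SD of 3. BMPR1B lies between 2.77 and 6.43 CPM in the 12 knockout-derived libraries and between 24.2 and 28.5 CPM in Scramble, whereas FKBP5 overlaps between KO and Scramble.

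In the group of signalling genes with the co-chaperone FKBP5, 3 of 8 tested members fell in KO and none rose. BMPR1B had 6.43, 5.40 and 6.04 CPM in KO, 5.503, 5.41 and 2.77 CPM in KO_WT, 5.41, 4.56 and 5.00 CPM in KO_S47A, 5.22, 5.06 and 3.73 CPM in KO_S404A and 28.5, 26.9 and 24.2 CPM in Scramble. BMPR1B, a type I receptor for bone morphogenetic proteins, was at or below 6.43 CPM in the 12 knockout-derived libraries and at 24.2 CPM or more in Scramble. Its log2 difference in KO was −2.16 (SE 0.22, adjusted p = 6.07e-05), the largest in size among the 40 members. PTGER4 had 0.884, 1.06 and 1.27 CPM in KO, 1.11, 0.981 and 1.04 CPM in KO_WT, 0.556, 0.638 and 1.01 CPM in KO_S47A, 0.451, 1.23 and 1.25 CPM in KO_S404A and 3.18, 2.63 and 3.48 CPM in Scramble. PTGER4, the EP4 receptor for prostaglandin E2, was at or below 1.27 CPM in all 12 knockout-derived libraries and at 2.63 CPM or more in Scramble. It fell by 1.53 in KO (SE 0.34, adjusted p = 0.0299), on 28 to 178 counts per library, and the call was lost without any 1 of the 6 KO and Scramble libraries, with adjusted p from 0.0576 to 0.134. LRIG1 had 74.5, 66.6 and 63.6 CPM in KO, 77.2, 76.6 and 71.4 CPM in KO_WT, 72.1, 71.5 and 80.4 CPM in KO_S47A, 72.1, 79.3 and 62.2 CPM in KO_S404A and 94.3, 103 and 90.03 CPM in Scramble. LRIG1, which holds back signalling of the EGF receptor family, was lower in every knockout-derived library than in Scramble. It fell by 0.49 in KO (SE 0.10, adjusted p = 0.019), and adjusted p was 0.0752 to 0.0992 without Scramble 2, KO 2 or KO 3.

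The signalling genes NDRG1 and TMEFF2 missed the threshold in KO. NDRG1 had 43.0, 35.6 and 38.2 CPM in KO, 44.3, 46.4 and 32.8 CPM in KO_WT, 52.0, 52.9 and 39.1 CPM in KO_S47A, 50.5, 52.9 and 37.8 CPM in KO_S404A and 79.5, 62.8 and 52.0 CPM in Scramble. NDRG1, a stress- and androgen-responsive gene, was lower in each KO library than in each Scramble library. Its log2 difference was −0.73 (SE 0.19, adjusted p = 0.054), and with the block it was called (−0.71, adjusted p = 0.000722). TMEFF2 had 25.6, 28.9 and 12.3 CPM in KO, 34.8, 34.6 and 19.0 CPM in KO_WT, 26.2, 24.6 and 20.03 CPM in KO_S47A, 33.1, 27.7 and 18.1 CPM in KO_S404A and 10.6, 14.2 and 8.33 CPM in Scramble. For TMEFF2, a membrane protein with follistatin and EGF-like domains, 1 KO library overlapped Scramble. Its log2 difference was 1.01 (SE 0.33, adjusted p = 0.156), and 0.96 with the block (adjusted p = 0.000919).

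FKBP5, the co-chaperone, did not pass the test. FKBP5 had 276, 249.98 and 328 CPM in KO, 148, 175 and 272 CPM in KO_WT, 117, 121 and 247 CPM in KO_S47A, 128, 221 and 303 CPM in KO_S404A and 237, 203 and 361 CPM in Scramble. In each line library 3 was the highest, and the KO and Scramble ranges overlapped. Its log2 difference in KO was 0.09 (SE 0.35, interval −0.66 to 0.84, adjusted p = 0.951). PMEPA1, which dampens TGF-beta signalling, and RAB3B, a vesicle GTPase, had log2 differences of −0.13 and −0.10 (adjusted p = 0.824 and 0.848).

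Among channels, transporters and metalloreductases 2 of 7 members fell in KO. TRPM8 had 34.9, 36.5 and 33.0 CPM in KO, 40.5, 42.2 and 38.3 CPM in KO_WT, 32.3, 32.1 and 49.6 CPM in KO_S47A, 35.1, 29.4 and 33.5 CPM in KO_S404A and 117, 108 and 95.3 CPM in Scramble. TRPM8, a cold- and menthol-gated cation channel, stood at no more than 49.6 CPM in any knockout-derived library and at no less than 95.3 CPM in Scramble. It fell by 1.62 in KO (SE 0.15, adjusted p = 2.77e-05). ABCC4 had 179.6, 192 and 207 CPM in KO, 209, 200.5 and 204 CPM in KO_WT, 200.2, 186 and 230.1 CPM in KO_S47A, 198, 182 and 206 CPM in KO_S404A and 307, 271 and 309 CPM in Scramble. ABCC4, an efflux pump of cyclic nucleotides and prostaglandins, was likewise lower in all 12. It fell by 0.62 in KO (SE 0.10, adjusted p = 0.00297). Of the rest, SLC45A3 (prostein), STEAP1, STEAP2, STEAP4 and the potassium channel KCNN2 were not called, with adjusted p from 0.324 to 0.793, and STEAP2 (−0.37, adjusted p = 0.0187) and KCNN2 (−0.69, adjusted p = 0.00401) were lower with the block.

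MAF was the one member of 9 in the transcription group that rose in KO, and none fell. MAF had 36.9, 29.0 and 21.8 CPM in KO, 31.8, 31.5 and 23.2 CPM in KO_WT, 28.2, 28.6 and 26.8 CPM in KO_S47A, 24.2, 31.4 and 23.1 CPM in KO_S404A and 15.5, 14.0 and 15.6 CPM in Scramble. MAF, a basic leucine zipper factor, was above every Scramble library in all 12 knockout-derived libraries. It rose by 0.96 in KO (SE 0.18, adjusted p = 0.00973), and without Scramble 2 the adjusted p was 0.0546. FOXA1, HOXB13, SPDEF, CREB3L4, ZBTB10, EAF2, ELL2 and MED28 had log2 differences between −0.21 and 0.17 and were not called (adjusted p 0.459 or more). FOXA1, the pioneer factor, averaged 285 ± 40.1 CPM in KO and 254 ± 15.2 CPM in Scramble. HOXB13, a homeobox factor of prostate epithelium, averaged 502 ± 8.68 CPM in KO and 523 ± 8.42 CPM in Scramble.

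Of 7 tested enzymes, 1 rose and 1 fell. UGT2B15 had 4.01, 5.35 and 6.13 CPM in KO, 3.93, 3.66 and 5.45 CPM in KO_WT, 2.39, 3.62 and 5.39 CPM in KO_S47A, 3.45, 3.42 and 3.98 CPM in KO_S404A and 1.88, 1.39 and 2.29 CPM in Scramble. UGT2B15, which glucuronidates androgens and so ends their action, was higher in each knockout-derived library than in any of Scramble. It rose by 1.48 in KO (SE 0.29, adjusted p = 0.0122), and adjusted p was 0.0591 to 0.0829 without Scramble 1, Scramble 2 or KO 3. GNMT had 31.9, 35.2 and 38.3 CPM in KO, 46.0, 42.8 and 38.8 CPM in KO_WT, 41.2, 36.9 and 50.4 CPM in KO_S47A, 34.2, 28.8 and 35.7 CPM in KO_S404A and 49.4, 49.3 and 53.6 CPM in Scramble. GNMT, a glycine N-methyltransferase, was lower in KO than in Scramble, with no overlap. It fell by 0.53 in KO (SE 0.12, adjusted p = 0.036), and the call ended under 8 of 21 alternatives, with adjusted p up to 0.16. ALDH1A3, which makes retinoic acid, averaged 36.7 ± 8.85 CPM in KO and 71.2 ± 18.9 CPM in Scramble (log2 difference −0.96, adjusted p = 0.148). With the block ALDH1A3 was called (−0.95, adjusted p = 1.42e-05). FOLH1, NNMT, UAP1 and HPGD were not called (adjusted p 0.504 or more).

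HERC3, a ubiquitin ligase, rose in KO, and it was the one call among 4 remaining members. HERC3 had 93.3, 89.5 and 99.0 CPM in KO, 75.0, 78.0 and 92.7 CPM in KO_WT, 74.7, 74.8 and 85.6 CPM in KO_S47A, 71.3, 86.0 and 98.1 CPM in KO_S404A and 59.5, 54.8 and 68.2 CPM in Scramble. All 12 knockout-derived libraries were above Scramble. It rose by 0.63 in KO (SE 0.13, adjusted p = 0.0156), and without Scramble 1, Scramble 2, KO 1 or KO 3 the adjusted p was 0.055 to 0.107. CENPN, MPHOSPH9 and C1orf116, known as specifically androgen-regulated gene, had log2 differences of 0.11, 0.09 and 0.02 and were not called.

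**Figure D3:**
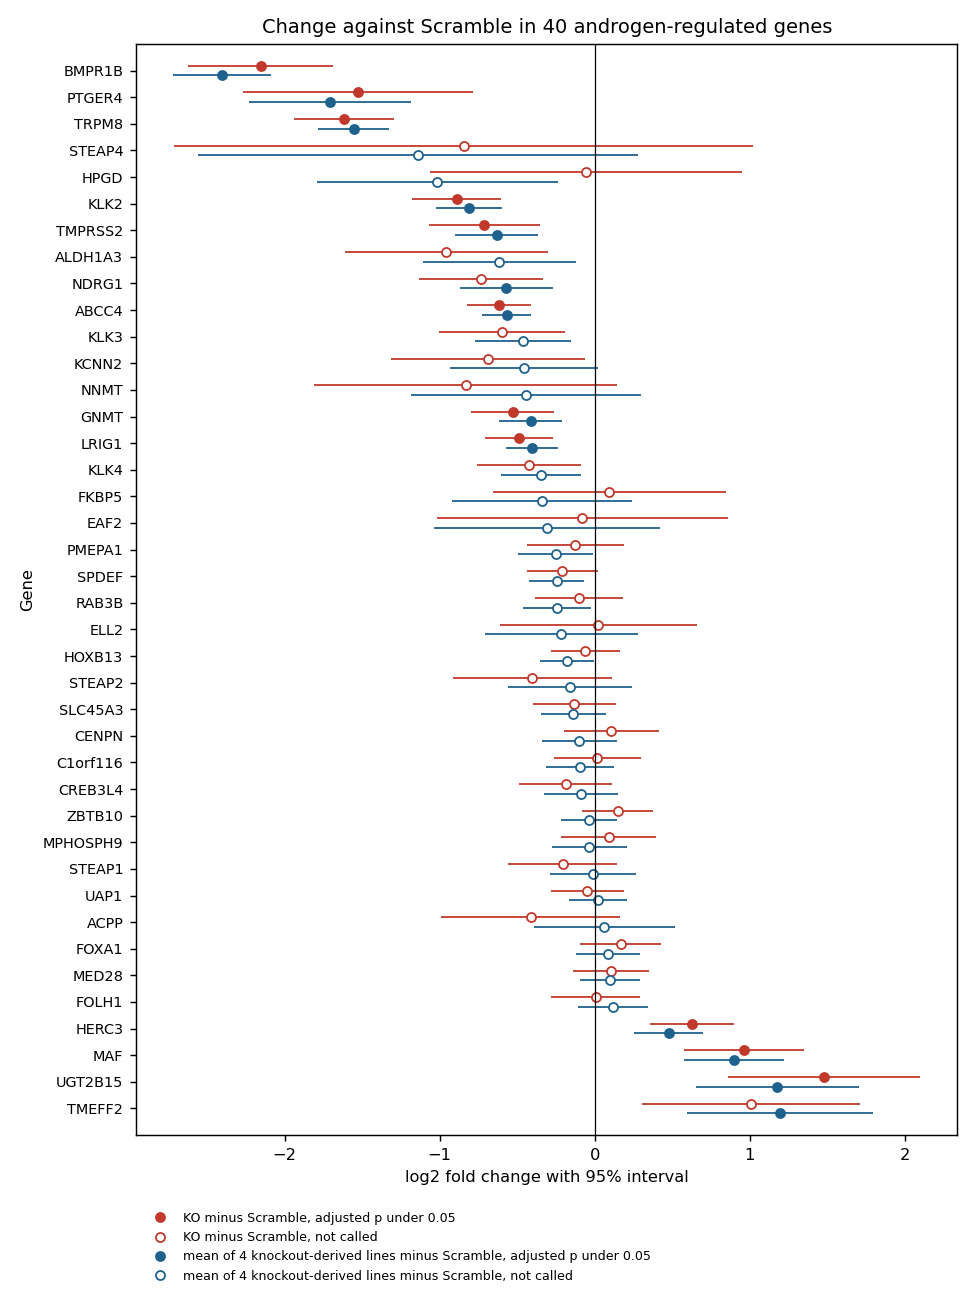
Log2 difference from Scramble (horizontal axis) for each of 40 members, for KO and for the mean of the 4 knockout-derived lines, with 95% intervals. BMPR1B (−2.16 in KO and −2.40 for the mean), TRPM8 and PTGER4 lie farthest to the left, and UGT2B15 and TMEFF2 to the right.

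Against Scramble, 8 members were called in KO_WT (3 higher and 5 lower), where 3.47% of all genes were called, 1.51% higher and 1.96% lower. In KO_S47A 6 were called (1 higher and 5 lower), against 3.82% of all genes, 1.59% higher and 2.23% lower. In KO_S404A 9 were called (1 higher and 8 lower), against 3.11% of all genes, 1.34% higher and 1.77% lower. These comparisons and that of KO share the 3 Scramble libraries. KLK2, TRPM8, ABCC4, PTGER4 and BMPR1B fell and MAF rose in each of the 4 lines, a pattern whose share over all genes is not given here. Their differences from Scramble in KO_WT were −0.69, −1.40, −0.53, −1.57, −2.54 and 0.94. In KO_S47A they were −0.72, −1.49, −0.53, −2.08, −2.41 and 0.89, and in KO_S404A −0.94, −1.71, −0.60, −1.66, −2.51 and 0.81. Leaving out 1 library ended some of these calls. In KO_WT that of KLK2 was lost without Scramble 1, KO_WT 1 or KO_WT 2 (adjusted p 0.0522 to 0.0571), and that of PTGER4 without Scramble 1, Scramble 3 or any KO_WT library (0.0612 to 0.0931). In KO_S47A those of KLK2 and ABCC4 were lost without KO_S47A 1 or 2 (0.0512 to 0.0568) and that of MAF without Scramble 2 (0.0552). In KO_S404A that of MAF was lost without any 1 Scramble library or KO_S404A 2 (0.0732 to 0.109), and that of PTGER4 without Scramble 1 or 3 (0.0527 and 0.066). With the block 13 members were called in KO_WT (10% of all genes) and 22 in KO_S47A (19.5%).

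The mean of the 4 knockout-derived lines differed from Scramble in 13 members, 4 higher and 9 lower, where 6.16% of all genes were called, 2.4% higher and 3.76% lower. Beyond the 11 of KO these were NDRG1, which fell by 0.57 (adjusted p = 0.0266), and TMEFF2, which rose by 1.19 (adjusted p = 0.0195). KLK3 had a log2 difference of −0.46 (adjusted p = 0.0805) and was called in DESeq2 (adjusted p = 0.0345) and with libraries 1 and 2 only (adjusted p = 0.00203). Without Scramble 1 the count was 7 and without Scramble 2 it was 8, where 464 and 515 of all genes were called, against 878. Leaving out either library ended the calls of TMPRSS2, NDRG1, HERC3, GNMT and UGT2B15. The TMEFF2 call was lost without Scramble 1 or 3, and the GNMT call also without Scramble 3. In all 12 knockout-derived libraries 7 members were below all 3 Scramble libraries (KLK2, KLK3, TRPM8, ABCC4, PTGER4, BMPR1B and LRIG1) and 3 were above (MAF, HERC3 and UGT2B15), where 3.97% and 2.7% of all genes were. A test for any difference among the 5 lines called 6 members (2.37% of all genes), namely KLK2, TRPM8, ABCC4, MAF, PTGER4 and BMPR1B. Without 1 library it called 3 to 10 members, and 142 to 538 of all genes, against 338 with every library.

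Adding an ATGL protein back was compared with KO itself, which asks whether the levels moved once the lipase or its S47A or S404A form was present. In edgeR's test no member was called in KO_WT, KO_S47A or KO_S404A against KO, where 0.0281%, 0.00702% and 0.0211% of all genes were called. DESeq2 called no member either, where 8, 33 and 8 of all 14246 genes were called. At an unadjusted p under 0.05 there were 5, 8 and 2 members, where 7.58%, 16.8% and 4.08% of all genes were. KLK2 averaged 540.2 ± 13.4 CPM in KO_WT and 470.3 ± 58.9 CPM in KO, a log2 difference of 0.20 with an interval of −0.08 to 0.48. For BMPR1B the interval of KO_WT minus KO ran from −0.85 to 0.08, and for TRPM8 from −0.11 to 0.53. Both upper bounds lie below the size of the KO difference from Scramble, which was −2.16 for BMPR1B and −1.62 for TRPM8. GNMT differed by 0.28 in KO_WT and by 0.29 in KO_S47A, with adjusted p of 0.625 and 0.286. Its interval for KO_WT minus KO ran from 0.009 to 0.542, which takes in the size of its fall in KO (0.530), and the 2 ranges did not overlap.

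**Figure D4:**
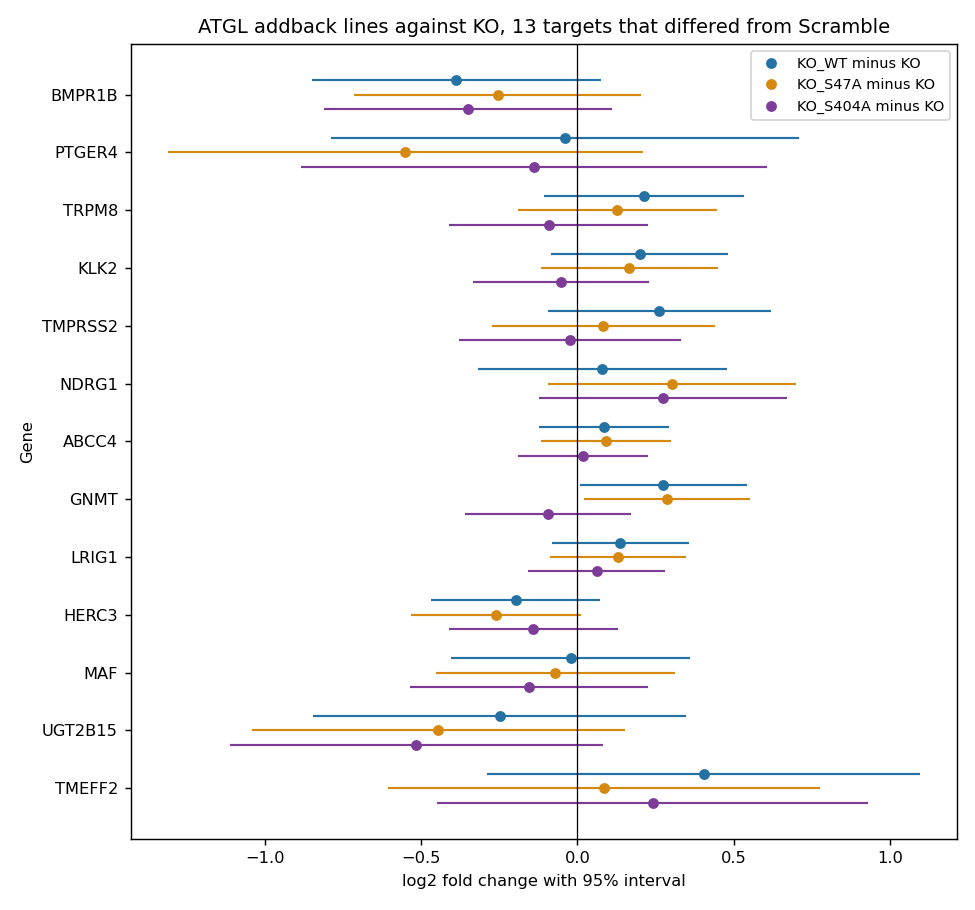
Log2 difference from KO (horizontal axis) for the 13 members called for the mean of the 4 knockout-derived lines, in KO_WT, KO_S47A and KO_S404A, with 95% intervals. The differences run from −0.55 (PTGER4 in KO_S47A) to 0.40 (TMEFF2 in KO_WT), and no member was called.

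Same-numbered libraries of KO_S47A and KO correlated in their deviations from the line means, at 0.2058, 0.1502 and 0.4291 for libraries 1, 2 and 3. Across numbers libraries 1 and 2 correlated as much (0.2283 and 0.1693). With the block 11 members were called, 3 higher (ACPP, ALDH1A3 and STEAP2) and 8 lower (CENPN, ELL2, FKBP5, HERC3, HOXB13, HPGD, MPHOSPH9 and ZBTB10). That share lies near the 22.1% of all genes called in the same fit. FKBP5 then differed by −0.91 (adjusted p = 0.00439), against −0.82 without the block (adjusted p = 0.285). The addback lines were also compared with one another. By edgeR no member was called in KO_WT minus KO_S47A (0% of all genes), KO_S404A minus KO_WT (0%) or KO_S404A minus KO_S47A (0.00702%). DESeq2 also called no member, where 4, 0 and 2 of all 14246 genes were called. In edgeR's test 0, 3 and 4 members had an unadjusted p under 0.05, where 2.17%, 8.70% and 6.59% of all genes did.

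Across all lines library 3 differed from libraries 1 and 2, and this is given as a description with no test. In all 5 lines 7 members were higher in library 3 than in the mean of the other 2 (FKBP5, ELL2, HERC3, CENPN, EAF2, MPHOSPH9 and UGT2B15), where 24% of all genes were. In all 5 lines 10 were lower (KLK4, STEAP2, NDRG1, ACPP, FOXA1, ALDH1A3, MED28, FOLH1, TMEFF2 and KCNN2), where 23.7% were. The median log2 difference was 0.83 for EAF2, 0.75 for FKBP5 and 0.57 for ELL2, and −0.74 for TMEFF2 and −0.72 for ALDH1A3. The summed level of 15 proliferation genes ranged from 2549 to 3801 CPM in KO and from 1917 to 3358 CPM in Scramble. It ranged from 1568 to 3681 CPM in KO_WT, 1285 to 3168 CPM in KO_S47A and 1379 to 3822 CPM in KO_S404A. These sums are not given here by library number. The labels do not say what a library number stands for, and apart from the block its part in the results was not tested.

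**Figure D5:**
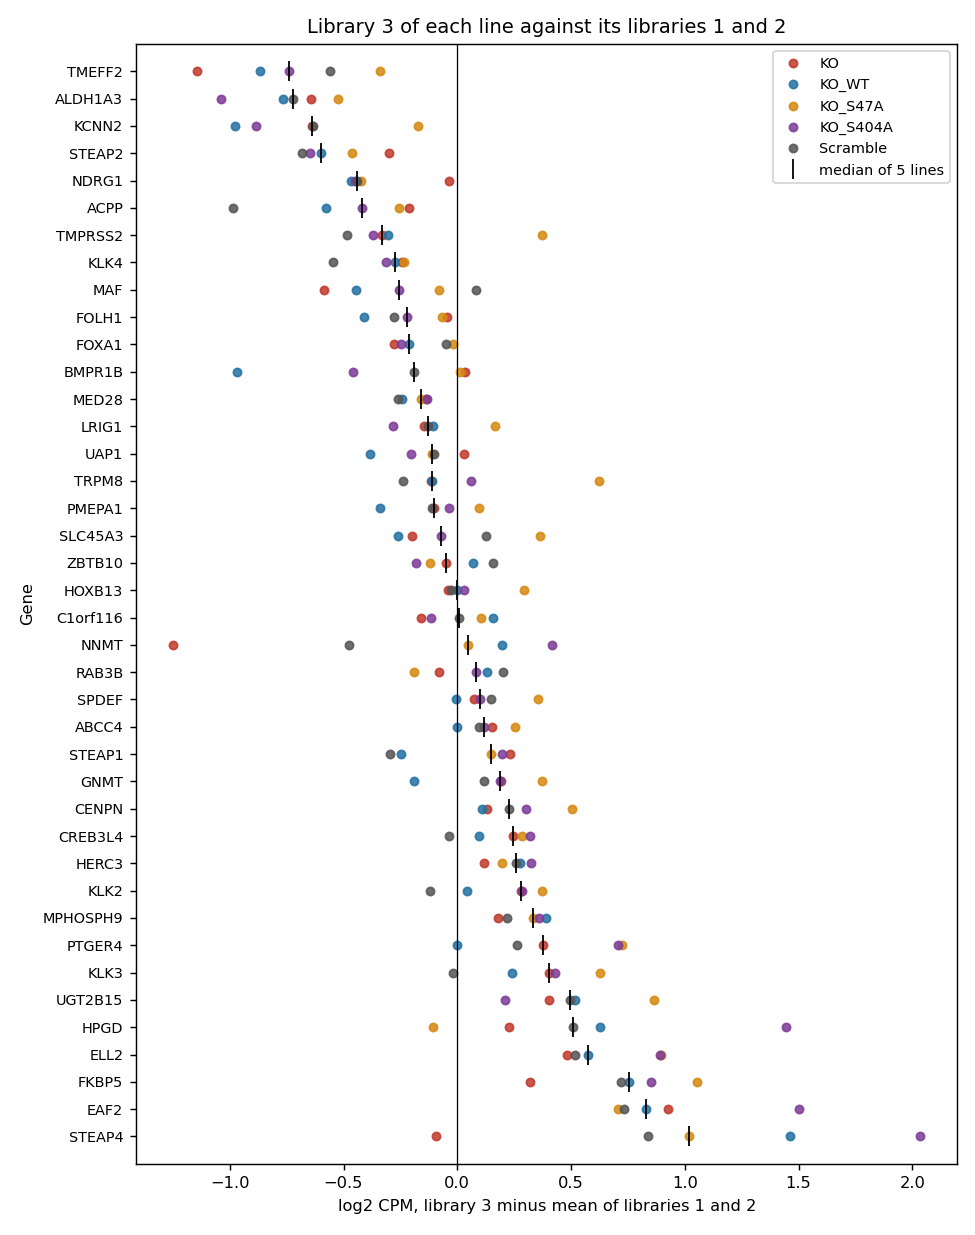
Library 3 minus the mean of libraries 1 and 2 (log2 CPM, horizontal axis) for each of 40 members (vertical axis), with 1 point per line and a bar at the median of the 5 lines. FKBP5, ELL2 and EAF2 lie above 0 in all 5 lines, and TMEFF2, ALDH1A3 and KCNN2 below 0 in all 5.

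Other genes of the pathway came from lists fixed by name. Of 74 further androgen-response genes, 3 rose and 3 fell in KO, where over all genes 0.969% rose and 1.72% fell, with a median log2 difference of −0.05 against 0.02 over all genes. INPP4B, a lipid phosphatase, rose by 0.87 (adjusted p = 0.0012) and ADAMTS1, a secreted metalloprotease, fell by 0.79 (adjusted p = 0.0032). SAT1, which acetylates polyamines, fell by 0.73, the kinase STK39 fell by 0.44 and GUCY1A3, a subunit of soluble guanylate cyclase, rose by 0.40. Of 20 coregulators and chaperones of steroid hormone signalling 1 rose, the coactivator NCOA1 (0.81, adjusted p = 0.0012), and of 16 tested genes of androgen synthesis and metabolism 1 rose, CYP11A1, the first enzyme of steroid synthesis (1.40, adjusted p = 0.0114). Of the 7 luminal markers 1 was called in KO, AGR2, which fell by 3.72, from a mean of 37.5 CPM in Scramble to 2.83 CPM. The summed level of the 7 was 1411 to 1516 CPM in KO and 1689.8 to 1707 CPM in Scramble. KRT18, not called in KO, averaged 383 ± 18.4 CPM there and 473 ± 25.1 CPM in Scramble. It was called lower for the mean of the 4 knockout-derived lines (−0.26, adjusted p = 0.0357). The part of these levels in the members' results was not tested.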

How the data were processed

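Poly(A) RNA of 15 libraries, 3 in each of 5 lines, was sequenced from directional libraries, per the labels. The authors deposited whole-number counts per gene, which are not normalized, and FPKM values, which recomputed from the counts over all entries deviated by a relative 9.53e-14 at most. The submitters' processing notes name CASAVA and STAR. Genome build, annotation release and strand setting of the counting were not given in the sources used here. Reads of overlapping or antisense genes cannot be told apart. Genes with related sequences elsewhere, such as KLK2 and KLK3, UGT2B15, FOLH1 and the STEAP genes, are uncertain only to the extent that shared reads were split or dropped. Unassigned reads, 13.2% to 20.6% of a library, were left out.

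Counts of 14246 genes that passed filterByExpr were scaled by TMM and fitted with edgeR 4.0.16 (R 4.3.3) by its quasi-likelihood test, 1 mean per line over all 15 libraries with 10 residual degrees of freedom, and adjusted by Benjamini-Hochberg within a comparison at a threshold of 0.05. The script was tested on simulated data. The SE is the absolute log2 difference divided by the square root of F, intervals are 95%, and levels are CPM as mean ± SD. At this depth the median halfwidth of a member's interval between KO and Scramble was 0.33. Libraries of a line differed beyond sampling noise (chi-square per degree of freedom 8.11 to 239), and all were kept. Library numbers in the titles were taken to pair the libraries of 2 lines by a rule on their deviations from the group means. The rule asked that every pair of same-numbered libraries correlated above 0.1. It held in 8 of 10 pairwise comparisons (correlations up to 0.6751) and not for KO_S404A against Scramble or KO (lowest 0.0197). In KO against Scramble and KO_S47A against KO, libraries 1 and 2 correlated about as much across numbers. The rule therefore does not show that these 2 numbers pair.

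The members and lists were chosen with earlier results of these data known. Values in every library are given for members called in KO minus Scramble, for the mean of the 4 knockout-derived lines or in any pair of those lines, and for KLK2, KLK3, KLK4, TMPRSS2 and FKBP5. A further gene named by that rule is not reported here. From the other lists, genes called in KO minus Scramble are named, at most 5 a list by p. Of the marker lists, 2 of 4 tested basal genes and 1 of 7 luminal genes were called in KO minus Scramble. In that comparison none of 3 neuroendocrine, 5 stromal, endothelial and blood, 15 proliferation and 13 ATF4 response genes was called. Alternatives were DESeq2 1.42.0, RLE size factors, no filter on low counts, the library number as a block, libraries 1 and 2 only, only the 2 lines compared, and leaving out each library.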

Additional observations from a re-analysis of the deposited data

How the results depend on the processing

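Of the members called, the counts were 18 of 40 for KO minus Scramble with the replicate block and 17 with libraries 1 and 2 only, against 11. KO_WT minus Scramble had 13 with the block, against 8. KO_S47A minus Scramble had 13 in DESeq2, 22 with the block and 21 with libraries 1 and 2 only, against 6, and KO_S404A minus Scramble had 18 with the block and 16 with libraries 1 and 2 only, against 9. KO_S47A minus KO had 11 with the block and 9 with libraries 1 and 2 only, against 0. Over all genes 3150 of 14246 and 3098 of 14352 were called in these 2 fits. With libraries 1 and 2 only, KO_WT minus KO had 1 (ALDH1A3) and KO_S404A minus KO had 2 (ALDH1A3 and ELL2), against 0. Over all 14352 genes 43 and 403 were called there. For any difference among the lines DESeq2 called 15, the block 24 and libraries 1 and 2 alone 20, against 6. Over all genes these fits called 1076 of 14246, 3256 of 14246 and 2518 of 14352, against 338 of 14246. For the mean of the 4 lines the block called 18, against 13, adding ALDH1A3, KCNN2, KLK3 (adjusted p = 0.0021), KLK4 and SPDEF. Over all 14246 genes it called 2109, against 878. The causes were not tested. The block moved no other count of members past 1.5 times. Without 1 library the counts were 4 to 12 (KO), 4 to 9 (KO_WT), 4 to 11 (KO_S47A) and 5 to 11 (KO_S404A) against Scramble, 0 to 0 in the 6 comparisons among knockout-derived lines, 7 to 15 for the mean of the 4 lines and 3 to 10 for any difference. For the mean of the 4 lines 464 to 1053 of all genes were called without 1 library, against 878. For any difference 142 to 538 were, against 338. The members' counts fell by over 1.5 times in KO_WT without Scramble 1, KO_WT 1 or KO_WT 2 (4 each) and in KO_S404A without Scramble 1 or 3 (5 each). In KO_S47A the count was 4 without KO_S47A 2 and 11 without KO_S47A 3. Over all genes, in the same order, the counts were 280, 240 and 278 in KO_WT, 247 and 263 in KO_S404A, and 258 and 984 in KO_S47A. Over all genes the block raised the count of calls against Scramble to 1181 (KO), 1429 (KO_WT), 2783 (KO_S47A) and 1522 (KO_S404A). The fit without it had 383, 494, 544 and 443 of 14246 genes, and DESeq2 called 689, 868, 1093 and 894. Libraries 1 and 2 only gave 770, 734, 2158 and 981 of 14352 genes in the same order. In KO_S47A minus KO the block raised the count to 3150 (1 without). No member's call changed direction under any of the alternatives run. With 3 libraries a line, small differences could not be detected.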
